A study of Mus musculus with 12 samples.

Results

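The genes described here encode enzymes and membrane proteins of the lysosome, with the TFEB family of transcription factors that act on lysosomal genes. They were taken as a named list of 40 genes, matched by gene symbol with no threshold on measured values, and the list was drawn up with earlier results of these data known. Of these, 37 were represented on the array by a probe set with a single symbol, among 12393 genes so named, through 69 probe sets. Arsb, Tfe3 and Cd63 were not analysed here. The genes fall into 6 roles: glycosidases and sulfatases, lipid enzymes and their activators, proteases with phosphatases and granulin, membrane proteins, the TFEB family, and the sorting receptor M6pr.

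The samples were total RNA of MB114, a mouse cell line that the labels call microvascular endothelial, cultured on Matrigel, a basement membrane gel on which endothelial cells form capillary-like networks. There were 4 groups, cells after 1, 5, 15 and 25 h on the gel, with 3 biological replicates each, and 1 Affymetrix array per replicate. All groups were on Matrigel, so the earliest time is the reference and cells off the gel were not analysed here, and all samples came from 1 cell line. The comparisons of 5, 15 and 25 h with 1 h share the same 1 h arrays. The p-values measure the spread between these replicates, and 3 arrays per time limit the precision.

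Lysosomes break down sugars, lipids and proteins with acid hydrolases, most of which carry mannose 6-phosphate and are delivered from the Golgi by receptors such as the one encoded by M6pr. Membrane proteins line the compartment, move ions and cholesterol across it, or bring enzymes to it. TFEB, TFE3 and MITF are helix-loop-helix factors that bind E-boxes, among them the CLEAR element found in the promoters of many lysosomal genes, and their activity is known to be set largely by phosphorylation and nuclear entry.

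A probe set's level is its MAS5 signal, a linear intensity that was scaled to the same trimmed mean on each array (500.1 to 500.2). The lowest and highest array medians were 154 and 209. A gene entered the tests when 3 or more of its 12 signals were at least 183.1, which is the median signal of the whole data set, and 7379 genes met this. Of the 37 lysosomal genes, 34 met it, 24 on every array and 10 on fewer. Gla, Mitf and Sgsh reached that signal on no 1 h array, so they entered the tests and counts through later times alone. Acp5, the tartrate-resistant phosphatase, stayed between 7.1 and 42.2, Cln3, a membrane protein lost in Batten disease, between 37.8 and 189, and Ctns, the cystine exporter, between 42.2 and 175, so these 3 were not tested. The ratio of 3' to 5' signal lay between 0.751 and 0.876 for Gapdh, and between 1.01 and 1.15 for actin. Arrays carrying replicate number 1 had hybridisation spike-ins 2.18-fold above the remaining arrays, and a 3' control for 18S RNA 10.0-fold above them. That imbalance was present at every time, and its part in single results was not tested beyond leaving those arrays out.

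The markers of the labelled cell type were mostly low: 2 of 12 endothelial genes, Cd34 with a mean of 531 over all arrays and Cdh5 with 181, reached the test, while Pecam1 had a mean of 17.9, Tie1 1.89 and Vwf 1.70. Because macrophages and osteoclasts are rich in lysosomes, 15 of their markers were also examined, and 4 reached the test. The summed level of all 15 ranged from 2597.5 to 6134.5 on the 1 h arrays and from 7582 to 11909 on the 25 h arrays. Most of that sum was Cd14 and Csf1r. Of the 4 tested, 2 were called higher at 25 h, 1 lower, and Laptm5, a lysosomal protein of blood cells, was not called (188 ± 94.9 at 1 h and 151 ± 92.0 at 25 h). Cd14, a coreceptor for lipopolysaccharide, rose from 969 ± 57.5 at 1 h to 7206 ± 2083 at 25 h (SD, n = 3; limma adjusted p = 4.07e-06). Csf1r, the receptor of macrophage colony stimulating factor, fell from 3144 ± 1761 to 903 ± 66.5 (limma adjusted p = 0.0135; 0.144 without the arrays numbered 1, 0.0632 and 0.0584 without 1 h array 1 or 2). Mmp9, a gelatinase of osteoclasts and other cells, had a mean of 90.0 on the 1 h arrays, 394 and 621.5 on the 5 and 15 h arrays, and 385 on the 25 h arrays (limma adjusted p = 0.0111 for 25 h, and 0.0688 without the arrays numbered 1). The defining leukocyte genes Ptprc and Itgam stayed between 1.2 and 42.3 and between 7.1 and 25.9 over all arrays, and the macrophage marker Adgre1 had a mean of 82.5. Fibroblast markers were high at every time, with 7 of 8 tested and a summed level of 42511 to 55983 at 1 h and 62416 to 90981 at 25 h. Of these, Dcn, Thy1, Col3a1 and Pdgfra were called higher at 25 h. Dcn, a collagen-binding proteoglycan, went from 849 ± 737 to 9019 ± 4297 (SD, n = 3; limma adjusted p = 0.000909). Without the arrays numbered 1, the calls of Col3a1 (0.0523) and Pdgfra (0.153) were lost, and that of Pdgfra was also lost without 1 h array 1 or 2, 5 h array 2, 15 h array 2 or any 25 h array (0.0507 to 0.136). Of 8 pericyte and smooth muscle markers, 4 were tested, and their summed level over all 8 was 7053 to 18100.4 at 1 h, 3928 to 5674 at 15 h and 3936 to 5563 at 25 h. Acta2, smooth muscle actin, fell from 8188.5 ± 4284 at 1 h to 1671 ± 969.7 at 25 h (SD, n = 3; limma adjusted p = 0.00368, and 0.0807 without the arrays numbered 1), and the other 3 were not called. Of 8 parietal endoderm markers, 5 were tested and 0 called at 25 h (3 higher with the replicate block), with a summed level of 15583 to 16490.5 at 1 h and 19704 to 22430.1 at 25 h. The part of these changes in the lysosomal results was not tested, and in bulk RNA a change in the share of a cell type and a change of RNA per cell cannot be told apart.

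The promoters from RefSeq (GRCm38.p6, 250 bases before to 50 after each start) were searched for the core of the CLEAR element. That element is known from promoters of many lysosomal genes, so a raised share here describes the list and is not a separate test. The search itself used no array values, but the list was drawn up with earlier results of these data known. Of the 40 genes, 36 matched a promoter. The letters TCACGTG, on either strand, were found for 10 of the 36, or 27.8%, against 4.29% of the 27025 genes with a window of that length. The shorter E-box CACGTG, which lies inside TCACGTG, was found for the same number of lysosomal genes, 10 of 36, and for 8.09% of all genes. The stretches below carry these matches in 6 genes of different roles whose signals are described in the results, each read 5′ to 3′ on the gene's strand with the match to TCACGTG in capitals.
Arsa, chr15:89477425-89477481, minus strand: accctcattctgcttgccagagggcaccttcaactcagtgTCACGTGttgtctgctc
Gaa, chr11:119267782-119267868, plus strand: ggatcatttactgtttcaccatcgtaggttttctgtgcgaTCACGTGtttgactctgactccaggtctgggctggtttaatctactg
Glb1, chr9:114400989-114401075, plus strand: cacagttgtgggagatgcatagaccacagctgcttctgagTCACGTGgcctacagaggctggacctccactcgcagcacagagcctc
Lgmn, chr12:102439096-102439182, minus strand: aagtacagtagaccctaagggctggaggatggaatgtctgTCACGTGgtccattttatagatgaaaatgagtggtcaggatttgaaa
Mcoln1, chr8:3500407-3500518, plus strand: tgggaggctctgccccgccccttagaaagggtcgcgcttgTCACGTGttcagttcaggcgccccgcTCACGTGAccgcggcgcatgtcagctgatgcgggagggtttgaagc
Lamp1, chr8:13159059-13159160, plus strand: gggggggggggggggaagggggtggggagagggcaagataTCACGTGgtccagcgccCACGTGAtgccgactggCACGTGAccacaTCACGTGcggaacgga

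All matches shown lie upstream of the annotated start. The one in Arsa ends 11 bases before it, the one in Glb1 43 bases before it and the one in Gaa 135 bases before it. Mcoln1 holds 2 matches and Lamp1 holds 4, the most among these genes. The letters also occur in the windows of Gla, Naglu, Sgsh and Cln3. Among the tested genes with the letters, 7 of 9 were higher at 25 h than at 1 h, with a median log2 change of 1.26 (range 0.34 to 1.72). Among those without, 18 of 21 were higher, with a median of 1.07 (range -0.08 to 1.77), so the ranges of the sets overlapped. A match is a description of letters in a window and not a measured binding site.

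Transcripts of lysosomal genes rose in the later part of the culture. At 25 h, 27 of the 34 tested genes were higher than at 1 h and 0 were lower (limma, Benjamini-Hochberg adjusted p under 0.05 over 7379 genes), against 21.6% of all tested genes higher and 15.1% lower. Their median log2 change was 1.08, with a range of -0.09 to 1.77, beside a median of 0.13 over all tested genes. The 25 h arrays lay entirely above the 1 h arrays for 29 of the 34 genes, against 28.5% of all genes. Among the 24 genes above the filter on every array, 21 were higher, and the share of all genes so filtered is not given here. In a fit blocked on replicate number, 31 of the 34 were higher (30.2% of all genes), and Sgsh, Idua, Npc1 and Lamp1 were the genes this added. Without the arrays numbered 1, 20 were higher in the unblocked fit and 27 with the block, where Acp2 was the one of the 27 genes that lost its call (adjusted p = 0.142). Within arrays numbered 1, 2 and 3 alone, the median change was 1.09, 1.02 and 1.21, beside 0.12, 0.10 and 0.15 over all tested genes. In these pairs, 33, 34 and 31 of the lysosomal genes were higher at 25 h.

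**Figure D1:**
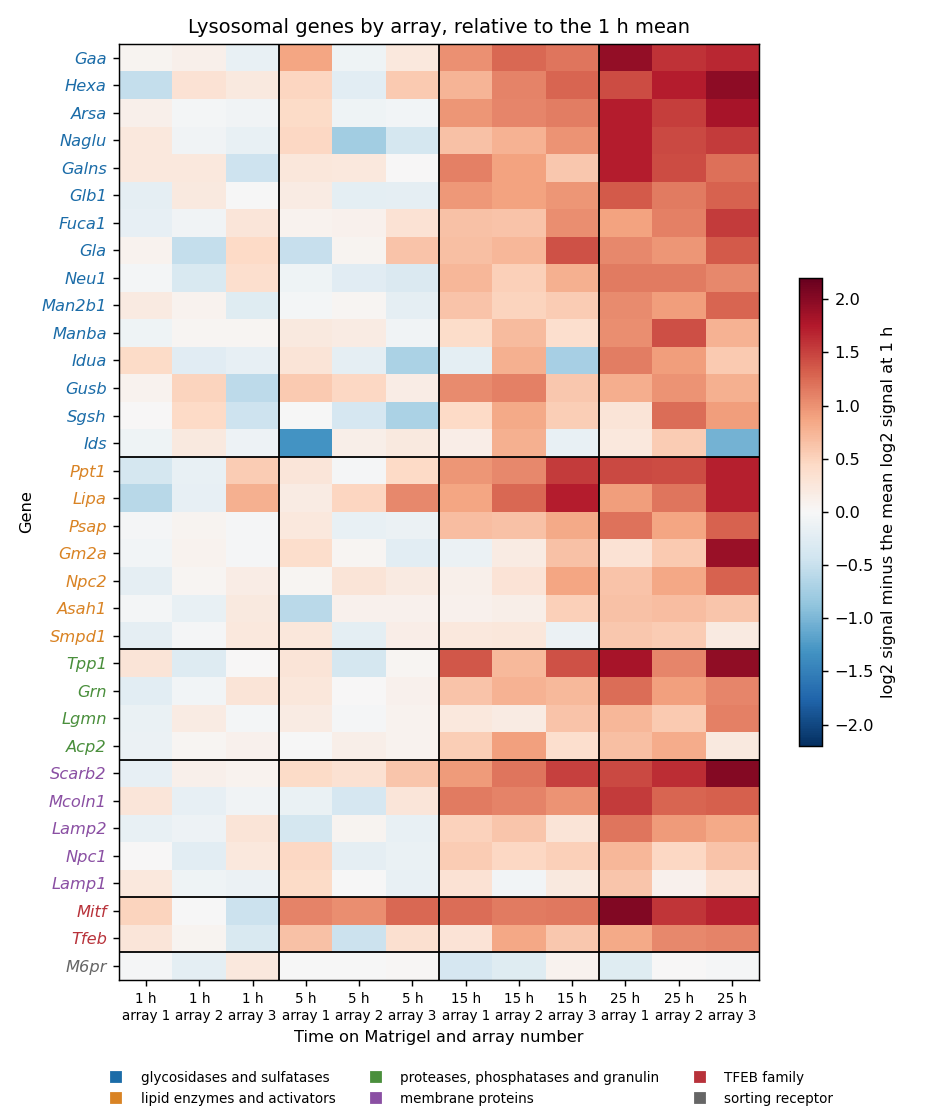
Colours show the log2 signal of each tested lysosomal gene (rows, grouped by role) on each of the 12 arrays (columns, 3 per time) minus that gene's mean log2 signal at 1 h. The 5 h arrays stay near the 1 h level for most genes and the 15 h arrays are higher. The 25 h arrays hold the highest mean for 29 of the 34 genes, and for 2645 of all 7379 tested genes.

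At 5 h the genes were mostly near their 1 h levels: 0 of the 34 genes were called against 1 h by limma (1.65% of all genes), 2 had an unadjusted p under 0.05 (13.8% of all genes), and the median log2 change was 0.07. With the replicate block, 2 were higher, Mitf (adjusted p = 0.0107) and Lipa (adjusted p = 0.0292), where 7.77% of all genes were called. By 15 h, 18 genes were higher and 0 lower than at 1 h, with a median log2 change of 0.69, where 15.4% of all genes were higher and 8.44% lower. The arrays did not overlap for 25 genes, against 25.6% of all genes. Without the arrays numbered 1, 6 genes were called in the unblocked fit and 17 with the remaining arrays blocked on replicate number. Counts and p-values given elsewhere without the arrays numbered 1 are from the unblocked fit unless the block is named. The share of all tested genes called without those arrays is given only for 15 h against 5 h. Other counts without those arrays are therefore not set against all genes. Of the 18 genes, Arsa, Gaa, Glb1, Mcoln1 and Scarb2 were called under each alternative setting tried, and Mitf under each one except the stricter filter on signal, which it did not pass.

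From 5 to 15 h, 13 genes rose and 0 fell, with a median log2 change of 0.61, against 8.73% of all genes higher and 5.75% lower. The count was 21 with the replicate block (19.4% of all genes higher), but 0 without all arrays numbered 1, where only 3 of 7379 genes were called. Those same arrays with the replicate block gave 15 genes, with 1339 of 7379 genes called. Leaving out single arrays took the 13 to 6 without 5 h array 2, 8 without 5 h array 3, and 8, 7 and 3 without 15 h arrays 1, 2 and 3. From 15 to 25 h, 0 genes were called (limma; 0.772% of all genes), 15 had an unadjusted p under 0.05 (8.98% of all genes), and 30 of 34 changes were positive, with a median log2 change of 0.41. With the block, Arsa (adjusted p = 0.0293) and Npc2 (adjusted p = 0.0485) were higher, where 1.19% of all genes were. In a test over all 4 times, 27 of the 34 genes differed (34.9% of all genes), and without the arrays numbered 1, 16 did in the unblocked fit and 26 with the block. The mean was highest at 25 h for 29 genes, at 15 h for 4 and at 5 h for 1.

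**Figure D2:**
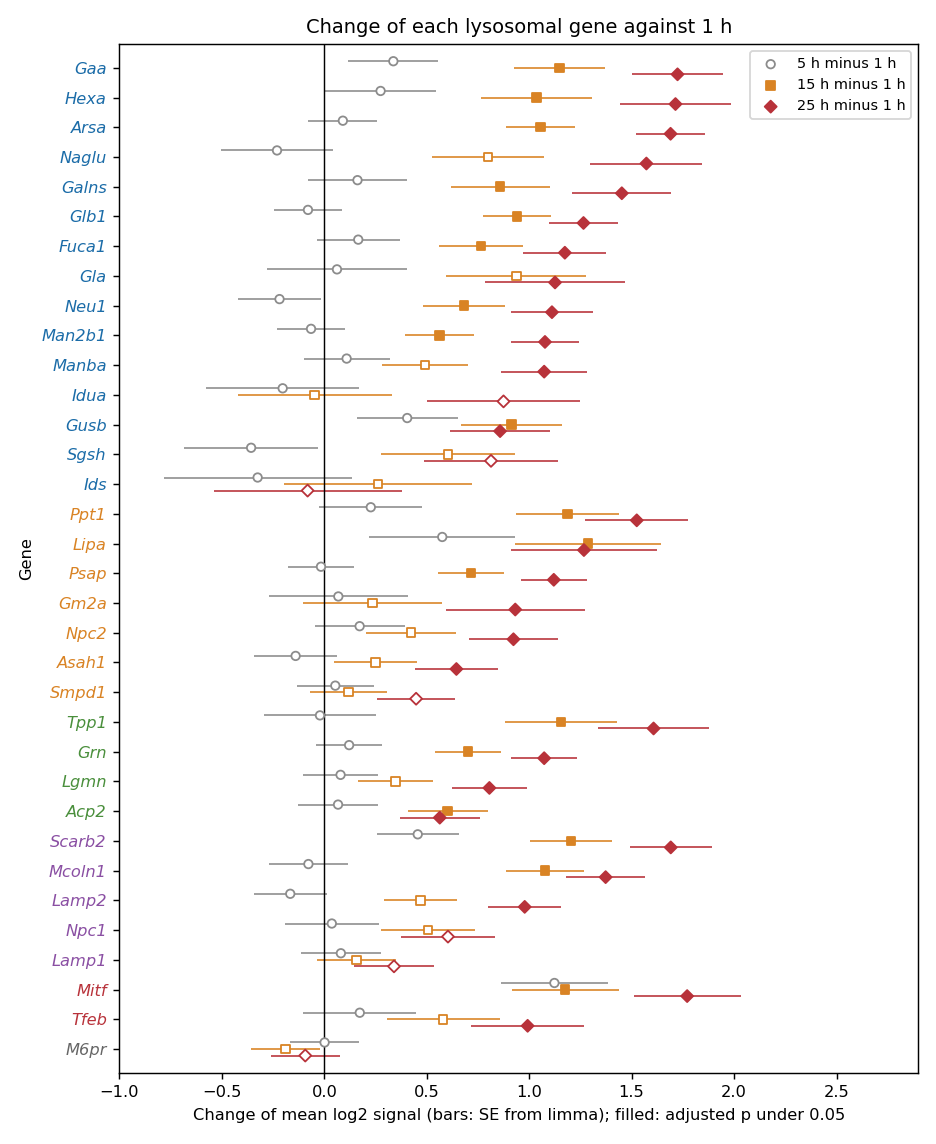
Points show the change of mean log2 signal of each tested lysosomal gene at 5, 15 and 25 h from 1 h, with bars for the standard error from limma and filled points for an adjusted p under 0.05. Gene names are coloured by role. Points for 5 h lie between -0.36 (Sgsh) and 0.58 (Lipa) except Mitf at 1.12, and those for 25 h lie at a median of 1.08.

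The glycosidases and sulfatases remove sugars and sulfate groups from glycans and glycolipids. Apart from the pair of TFEB family genes, they had the highest median change at 25 h among the roles, but differences between roles were not tested. At 25 h 12 of 15 were higher, with a median log2 change of 1.13, and at 15 h 9 of 15, with a median of 0.80. The count at 15 h was 3 without the arrays numbered 1 (9 with the block) and 5 without 15 h array 1 or 15 h array 3. At 5 h the median was 0.06 and 0 were called. Arsa encodes arylsulfatase A, which takes sulfate from sulfatide. Its signals were 799, 720.5 and 702 at 1 h, 987, 693 and 713 at 5 h, 1444, 1556 and 1610.0 at 15 h, and 2446, 2130.1 and 2607 at 25 h. The 15 h arrays were all above the earlier ones and the 25 h arrays all above those. The change at 25 h from 1 h was 3.23-fold (log2 1.69 ± 0.17 SE; limma adjusted p = 2.77e-05), and at 15 h 2.08-fold (limma adjusted p = 0.0013).

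Gaa encodes acid alpha-glucosidase, which degrades glycogen in the lysosome. Its signals were 729, 749.7 and 621.5 at 1 h, 1276, 657 and 816 at 5 h, 1396, 1677 and 1581 at 15 h, and 2652, 2103 and 2199 at 25 h. The groups from 1, 15 and 25 h were fully separate, while 5 h array 1 stood above the other arrays of its time. The change at 25 h was 3.31-fold (log2 1.72 ± 0.22 SE; limma adjusted p = 0.000108). Its probe set carries the _x_at suffix, which marks probes that can also match other transcripts, and a second probe set of Gaa without that suffix also rose, by a log2 change of 1.63.

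Glb1 encodes acid beta-galactosidase, the enzyme behind the senescence-associated stain. Its signals were 406, 539 and 461 at 1 h, 527, 401 and 404 at 5 h, 901, 864.5 and 916.5 at 15 h, and 1183, 1031 and 1148 at 25 h. The 1 and 5 h arrays overlapped and every later array was above them. The change was 1.92-fold at 15 h (limma adjusted p = 0.00238) and 2.40-fold at 25 h (log2 1.26 ± 0.17 SE; limma adjusted p = 0.000137). Hexa, the alpha subunit of beta-hexosaminidase, which cleaves the ganglioside GM2, went from 936 ± 269 at 1 h to 3009.7 ± 551 at 25 h (SD, n = 3; limma adjusted p = 0.000447). The 1 h arrays of Hexa ran from 628.5 to 1128 and the 25 h arrays from 2455 to 3557.

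The remaining genes of this role that rose by 25 h did so by 1.81- to 2.97-fold. They were Naglu and Galns, which act on heparan and keratan sulfate, with 2.97-fold and 2.74-fold, Fuca1, a fucosidase, with 2.26-fold, Gla, the alpha-galactosidase of Fabry disease, with 2.18-fold, Neu1, a sialidase, with 2.16-fold, and the mannosidases Man2b1 and Manba with 2.11- and 2.10-fold. The mean of Gusb, beta-glucuronidase, was highest at 15 h (1245.5 ± 227), but its 15 and 25 h arrays overlapped (log2 -0.05, limma adjusted p = 0.989). It stood at 1187 ± 94.6 at 25 h, from 684 ± 241 at 1 h (limma adjusted p = 0.016 for 25 h). That call was lost without the arrays numbered 1 (0.105), without 1 h array 3 (0.0612), without 25 h array 2 (0.0526), and when the probe sets were averaged. The call of Gla (limma adjusted p = 0.0212) was lost without the arrays numbered 1 (0.0801), 1 h array 2 (0.0841) or 25 h array 3 (0.0684). All 1 h arrays of Gla were under the signal used as the filter.

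Of the 15, 3 genes were not called at 25 h. Sgsh, which desulfates heparan, had a mean of 138 ± 42.5 at 1 h and 243 ± 76.6 at 25 h (SD, n = 3; limma adjusted p = 0.0693, and 0.0286 with the replicate block). All 1 and 5 h arrays of Sgsh were under the signal used as the filter, so it entered the test through 15 and 25 h. Idua, the iduronidase, had 202 ± 54.7 and 366 ± 69.3 (limma adjusted p = 0.086, and 0.022 with the block), and a dimmer probe set of the gene was called, with a log2 change of 1.15 (limma adjusted p = 0.006). Ids, which removes sulfate from iduronate, had signals of 208, 259 and 206 at 1 h and 263, 328 and 108 at 25 h, so the groups overlapped widely (log2 -0.08 ± 0.46 SE; limma adjusted p = 0.906), and the sign turned without 25 h array 3 (log2 0.40) or 1 h array 2 (log2 0.026).

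**Figure D3:**
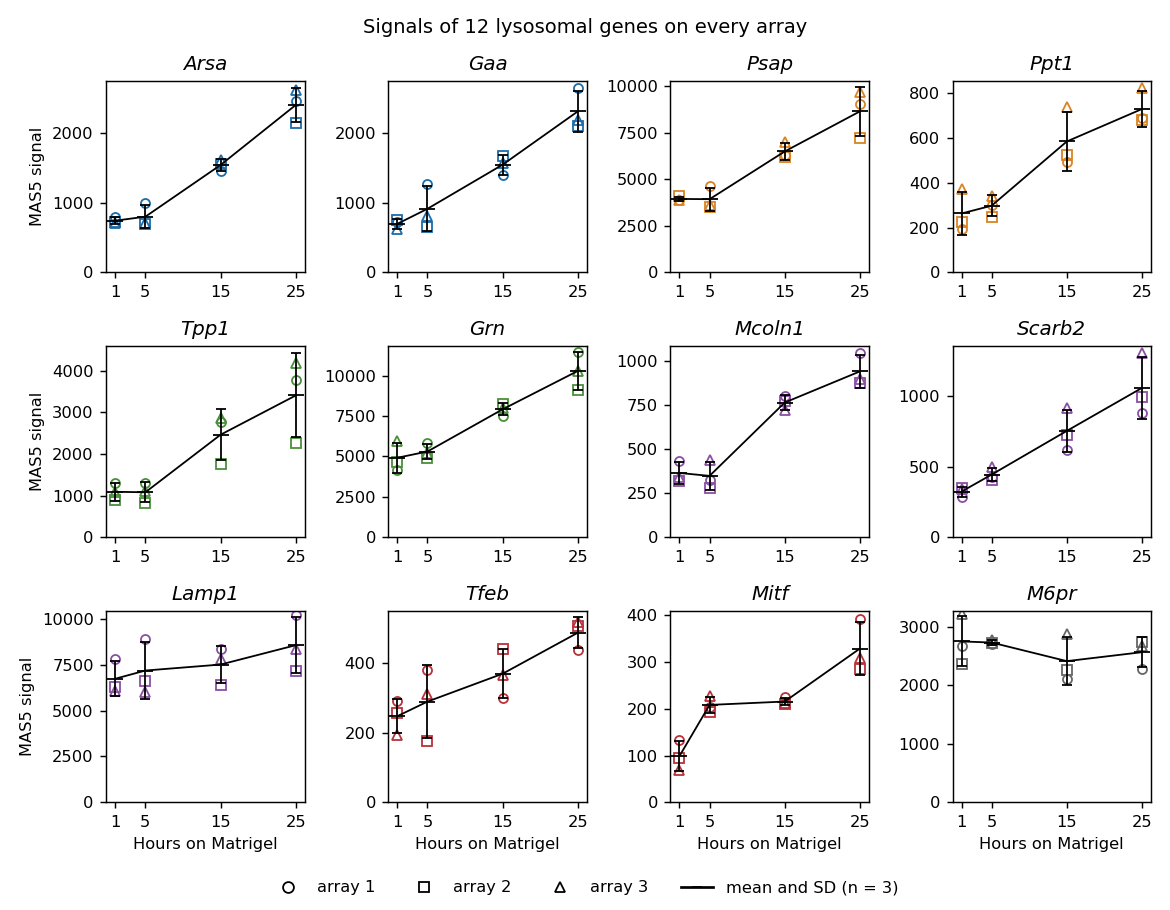
MAS5 signal of 12 lysosomal genes on every array against hours on Matrigel, with symbols for the array number and a line with bars for the mean and SD of 3 arrays. Most panels are level from 1 to 5 h and higher at 15 and 25 h; Mitf is already at 208 at 5 h from 99.1 at 1 h, and Lamp1 and M6pr have overlapping arrays at 1 and 25 h.

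Among the lipid enzymes and activators, 6 of 7 were higher at 25 h, with a median log2 change of 0.93, and 3 of 7 at 15 h, with a median of 0.42. At 25 h the count was 3 without the arrays numbered 1 (6 with the block), without 1 h array 1 or without 25 h array 3, and at 15 h it was 0 without the arrays numbered 1 (3 with the block). Psap encodes prosaposin, the precursor of the saposins that present sphingolipids to hydrolases. Its signals were 3868, 4097 and 3881 at 1 h, 4647.5, 3534.5 and 3618.5 at 5 h, 6285, 6186 and 7022 at 15 h, and 9029.6, 7201.5 and 9711 at 25 h. Again the early arrays overlapped and each later time lay above the one before. The change at 25 h was 2.17-fold (log2 1.12 ± 0.16 SE; limma adjusted p = 0.000238).

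Ppt1, the palmitoyl-protein thioesterase that removes fatty acids from proteins, had signals of 192, 224 and 372 at 1 h, 302.5, 249 and 342 at 5 h, 492, 523 and 736 at 15 h, and 687, 678 and 820.3 at 25 h. Array 3 was the highest at 1, 5, 15 and 25 h. The 15 and 25 h arrays were still all above the 1 and 5 h arrays, while the 15 and 25 h arrays overlapped. The change at 25 h was 2.88-fold (log2 1.52 ± 0.25 SE; limma adjusted p = 0.000616). Lipa, acid lipase, which hydrolyses cholesteryl esters, showed the same order of arrays more strongly, with 478, 643 and 1255 at 1 h, 827, 1012 and 1523 at 5 h, 1324, 1747 and 2416.5 at 15 h, and 1374, 1646 and 2374.5 at 25 h. Its mean was level between 15 and 25 h, and the change at 25 h from 1 h was 2.41-fold (log2 1.27 ± 0.36 SE; limma adjusted p = 0.0143). That call was lost without all arrays numbered 1 (0.0681), without 1 h array 1 (0.0673) or without 25 h array 3 (0.0577), and the adjusted p was 1.28e-05 with the replicate block.

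Npc2, the soluble carrier that hands cholesterol to Npc1, had signals of 4152, 4869.9 and 5313 at 1 h, 4902, 5752 and 5452 at 5 h, 5111, 5841 and 8691 at 15 h, and 7318, 8524.5 and 11740.2 at 25 h. Its 15 h arrays overlapped the 1 h arrays and its 25 h arrays did not (1.90-fold at 25 h, log2 0.92 ± 0.22 SE; limma adjusted p = 0.00559). At 15 h Npc2 was not called (log2 0.42, limma adjusted p = 0.18), but it was with the replicate block (adjusted p = 0.0199). Asah1, acid ceramidase, had a mean of 1908 ± 258 at 1 h and 2277 ± 393 at 15 h (limma adjusted p = 0.403, and 0.238 with the block). At 25 h its mean was 2965 ± 65.0 (1.56-fold; limma adjusted p = 0.0254). The call for Asah1 was lost without the arrays numbered 1 (0.075), without 1 h array 1 (0.07) or 2 (0.085), and without 25 h array 1 (0.0622), 2 (0.0633) or 3 (0.0503).

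The GM2 activator Gm2a rested on 1 array: its 25 h signals were 1359.6, 1635 and 4050.2, against 1044.5, 1154 and 1075.5 at 1 h (1.91-fold; limma adjusted p = 0.0474). Without 25 h array 3 the log2 change was 0.45 and the adjusted p 0.175, and the call was lost in 14 of 23 alternatives. Smpd1, acid sphingomyelinase, was the lipid enzyme not called, with 1027.5, 1169.9 and 1384 at 1 h and 1783, 1735 and 1364 at 25 h (log2 0.45 ± 0.19 SE; limma adjusted p = 0.0819). Its 25 h array 3 lay inside the 1 h range.

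The proteases, the phosphatase Acp2 and granulin were higher at 25 h in 4 of 4 cases, with a median log2 change of 0.94, and in 2 of 4 without the arrays numbered 1 (3 with the block). Tpp1 encodes tripeptidyl peptidase 1, which clips tripeptides from protein ends. Its signals were 1314, 887 and 1084 at 1 h, 1308, 831 and 1111 at 5 h, 2773, 1767 and 2853.5 at 15 h, and 3780.3, 2264 and 4173 at 25 h. Array 2 was the lowest at each time, and the later arrays remained above all early ones. The change was 3.05-fold at 25 h (log2 1.61 ± 0.27 SE; limma adjusted p = 0.000726) and 2.23-fold at 15 h (limma adjusted p = 0.00949, and 0.0791 without the arrays numbered 1).

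Grn encodes progranulin, a secreted growth factor that is also carried to lysosomes and cut there into granulins. Its signals were 4149, 4687 and 5929.5 at 1 h, 5818.5, 4887 and 5215 at 5 h, 7508, 8249 and 7986 at 15 h, and 11445.5, 9107 and 10300.2 at 25 h. The 15 and 25 h groups were separate from each other and from the early arrays (2.10-fold at 25 h, log2 1.07 ± 0.16 SE; limma adjusted p = 0.000333). As for Gaa, the probe set of Grn carries the _x_at suffix, and a dimmer one without it rose by a log2 change of 1.28. Lgmn, the asparagine-specific protease legumain, had 931, 1171 and 1001 at 1 h and 1712.5, 1535 and 2217 at 25 h (1.75-fold; limma adjusted p = 0.00455, and 0.0678 without the arrays numbered 1). Acp2, lysosomal acid phosphatase, had 347, 389 and 404 at 1 h, 549, 708 and 491 at 15 h, and 601, 669 and 438 at 25 h. Its change at 25 h was 1.48-fold (limma adjusted p = 0.0388), and this call was lost in 12 of 23 alternatives, with an adjusted p of 0.279 without the arrays numbered 1, 0.116, 0.0722 and 0.0568 without 1 h array 1, 2 or 3, 0.0502 without 15 h array 1, and 0.111 and 0.143 without 25 h array 1 or 2. The other probe sets of Acp2 gave log2 changes of 0.99 and 1.32 at 25 h, both called by limma in a fit of all probe sets (adjusted p = 0.00085 and 0.00223).

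Of the membrane proteins, 3 of 5 were higher at 25 h, with a median log2 change of 0.98, and with the replicate block 5 of 5. Scarb2 encodes LIMP-2, the receptor that carries glucocerebrosidase to the lysosome. Its signals were 284, 347 and 342 at 1 h, 431, 407 and 496 at 5 h, 619, 727.5 and 914 at 15 h, and 879.9, 989.8 and 1303 at 25 h. It was the only membrane protein whose 5 h arrays all lay above its 1 h arrays, but that step was not called (log2 0.46 ± 0.20 SE; limma adjusted p = 0.331). The change was 2.30-fold at 15 h (limma adjusted p = 0.00159) and 3.23-fold at 25 h (log2 1.69 ± 0.20 SE; limma adjusted p = 6.44e-05).

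Mcoln1 encodes mucolipin 1, the calcium channel of the lysosomal membrane. Its signals were 435, 320.0 and 343 at 1 h, 329, 282 and 437 at 5 h, 802, 772 and 723 at 15 h, and 1048, 878 and 901 at 25 h. The step fell between 5 and 15 h, where the groups were widely separate (log2 1.15 ± 0.19 SE; limma adjusted p = 0.003), though that call was lost without the arrays numbered 1 (0.0675). At 25 h the gene was 2.59-fold above 1 h (limma adjusted p = 0.000194). Both LAMP proteins, abundant glycoproteins that coat the inside of the membrane, had different results in their own tests.

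Lamp2 had signals of 2646, 2742 and 3597 at 1 h, 2276.5, 3078.5 and 2635 at 5 h, 4237, 4534 and 3598 at 15 h, and 6685, 5668 and 5263.5 at 25 h, and it rose 1.97-fold by 25 h (log2 0.98 ± 0.18 SE; limma adjusted p = 0.00115). Lamp1 had 7817, 6293 and 6086 at 1 h, 8914, 6615 and 6006 at 5 h, 8337.5, 6396 and 7779.6 at 15 h, and 10195, 7149 and 8330.1 at 25 h. Its groups overlapped at every time, and the log2 change at 25 h was 0.34 ± 0.20 SE (limma adjusted p = 0.192, and 0.0199 with the replicate block, array 1 being the highest at each time). The difference between the changes of Lamp1 and Lamp2 was not tested, and 1 further probe set of Lamp2 was not called (log2 0.50, limma adjusted p = 0.185). Npc1, the membrane cholesterol transporter, had 183, 156 and 214 at 1 h and 305, 250.4 and 281 at 25 h, with no overlap (log2 0.60 ± 0.23 SE; limma adjusted p = 0.0538, and 0.0217 with the block).

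Both TFEB family genes that were tested rose. Mitf, the factor known from pigment cells and osteoclasts, had signals of 134, 95.1 and 68.4 at 1 h, 204, 193 and 228 at 5 h, 224, 209.9 and 213 at 15 h, and 393, 285 and 308 at 25 h. The 5 h arrays already lay above the 1 h arrays, the 5 and 15 h arrays overlapped, and the 25 h arrays were higher again. Its log2 change was 1.12 ± 0.26 SE at 5 h (limma adjusted p = 0.052, and 0.0107 with the replicate block), 1.17 at 15 h (limma adjusted p = 0.00701) and 1.77 at 25 h (3.41-fold; limma adjusted p = 0.000293). At 1 h all its arrays were under the signal used as the filter, so it entered the test through the later times. Tfeb, the factor after which the family is named, had 292, 256 and 195 at 1 h, 380.5, 176 and 312 at 5 h, 301, 441 and 367 at 15 h, and 436, 506 and 519.6 at 25 h. Its 25 h arrays were above all 1 and 5 h arrays (1.99-fold, log2 0.99 ± 0.28 SE; limma adjusted p = 0.0135, and 0.0524 without 1 h array 3), while at 15 h it was not called (limma adjusted p = 0.146).

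The cation-dependent mannose 6-phosphate receptor M6pr had signals of 2671, 2360.4 and 3205 at 1 h and 2273, 2738 and 2675 at 25 h. The groups overlapped, with 25 h array 1 below the 1 h range (log2 -0.09 ± 0.17 SE; limma adjusted p = 0.693), and its 5 and 15 h arrays lay in the same span apart from 2102 and 2252 on 15 h arrays 1 and 2. Where a gene had more than 1 probe set above the filter, the probe sets mostly moved alike. Of 20 further probe sets of genes called at 25 h, 20 had the same sign and 15 were called themselves, 0 in the opposite direction, in a fit of all probe sets. Those not called belonged to Lamp2 (log2 0.50, limma adjusted p = 0.185), Lipa (0.58, 0.224), Gusb (0.46, 0.295), Gm2a (0.70, 0.137) and Ppt1 (0.80, 0.0528). The remaining further probe sets of Lamp2 were called, with log2 changes of 1.58 and 1.23.

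Genes of neighbouring pathways were counted from lists of named genes, to be read against the 21.6% of all tested genes that were higher at 25 h than at 1 h. Of 8 tested cathepsins, the other large class of lysosomal proteases, 6 were higher and 1 lower at 25 h, with a median log2 change of 1.14. Of the 6, Ctsf reached the signal used as the filter on no 1 or 5 h array, so it entered through later times alone. Ctsa, which protects Neu1 and Glb1 in a complex, went from 1175 to 4223 (3.56-fold; limma adjusted p = 3.06e-05), Ctsl rose 2.41-fold (limma adjusted p = 0.000555) and Ctsb 1.92-fold (limma adjusted p = 0.00133). Ctse, an aspartic protease of endosomes, was the one that fell (log2 -1.25; limma adjusted p = 0.00583). Of 30 further lysosomal genes, 17 were higher and 0 lower (median log2 change 0.60). Among them were Glmp, a lysosomal membrane glycoprotein, 2.78-fold (limma adjusted p = 6.51e-05), and Dpp7, a dipeptidyl peptidase, 2.54-fold (limma adjusted p = 0.00101).

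Of 17 subunits of the V-ATPase, the proton pump that acidifies lysosomes, 6 were higher (35.3%, against 21.6% of all genes) and 0 lower, with a median of 0.53. With the replicate block 13 were higher (30.2% of all genes), and 1 was without the arrays numbered 1 (5 with the block). Atp6v0d1 rose 2.02-fold (limma adjusted p = 0.00116) and Atp6v0a1 1.67-fold (limma adjusted p = 0.0118, and 0.0963 without the arrays numbered 1). Of 27 autophagy genes, 14 were higher and 0 lower (median 0.59), led by Map1lc3b, which coats autophagosomes, 2.58-fold (limma adjusted p = 4.6e-05), and Wipi1, which binds their lipid, 2.62-fold (limma adjusted p = 0.000114). Of the 14, Pik3c3 reached the signal used as the filter on no 1 or 5 h array, and Pik3r4 on no 1 h array. Both entered the count through later times alone. Without the arrays numbered 1 the autophagy count was 7 (12 with the block). Of 16 genes of nutrient sensing at the lysosome, 4 were higher and 0 lower (median 0.26), a share of 25.0% that lies near the 21.6% of all genes, and 2 were higher without the arrays numbered 1 (3 with the block). Of 12 genes of the mannose 6-phosphate sorting route, to which M6pr belongs by function, 1 was higher and 0 lower, with a median of 0.05, and 2 were higher with the block. The called gene was Ap1b1, a coat adaptor (1.55-fold; limma adjusted p = 0.0294), whose call was lost without the arrays numbered 1 (0.231), 1 h array 1 (0.0968) or 2 (0.0501), or 25 h array 1 (0.0781) or 2 (0.0761), while the sorting receptor Sort1 had a log2 change of 0.20 (limma adjusted p = 0.462). All 6 lists had 0 called genes at 5 h (1.65% of all genes) and 0 between 15 and 25 h (0.772% of all genes). With the replicate block, 1 V-ATPase gene was higher at 5 h. The block also gave 1 higher and 1 lower at 5 h in both the autophagy and the nutrient sensing list (7.77% of all genes called). Between 15 and 25 h it gave 1 cathepsin and 1 autophagy gene higher (1.19% of all genes higher).

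**Figure D4:**
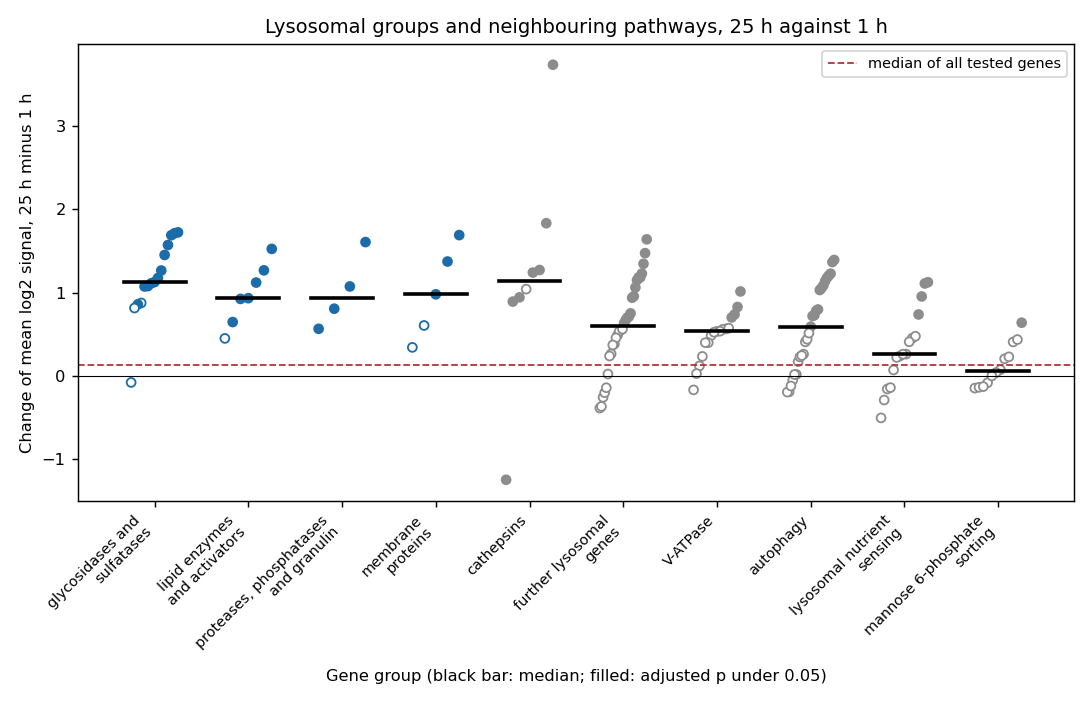
Each point is the change of mean log2 signal of 1 tested gene from 1 to 25 h, in 4 roles of the lysosomal genes (blue) and 6 neighbouring lists (grey); filled points have an adjusted p under 0.05, black bars are medians and the dashed line is the median of all tested genes. The medians of the 4 roles lie between 0.93 and 1.13, the V-ATPase and autophagy lists at 0.53 and 0.59, and the mannose 6-phosphate sorting list at 0.05.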

How the data were processed

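Total RNA of MB114 cells after 1, 5, 15 and 25 h on Matrigel was hybridised to 12 Affymetrix arrays, 3 per time. The deposited values are linear intensities per probe set that the authors computed with MAS5 (submitters' processing notes), whose version and detection calls no label records. Values of 22690 probe sets were read, with 64 control probe sets and 1 with empty values left out, and 20380 had 1 gene symbol, 691 several and 1555 none. Signals were put on the log2 scale, the brightest probe set by mean stood for a gene, and genes were kept where the signal reached 183.1 on at least 3 arrays. limma 3.58.1 in R 4.3.3 was fitted with 1 mean per time over all 12 arrays (8 residual degrees of freedom), with a trended prior and Benjamini-Hochberg adjustment over 7379 genes. Single probe sets were fitted the same way over all probe sets above that signal. Folds are ratios of geometric means. The script was tested on simulated data. The members of the list, their roles, the neighbouring lists and the cell type markers were chosen with earlier results of these data known. All listed lysosomal genes are accounted for, and of each neighbouring list the genes of lowest p over the 4 times were named, with Ctse and the members whose call an array decided named after their values were seen. The arrays' replicate numbers pair the samples: deviations from the time means correlated at 0.33 to 0.76 between arrays of the same number (18 pairs) and at -0.59 to 0.20 otherwise, so the number was also used as a block. Other settings tried were the filter, scaling, an offset, the mean of probe sets, no trend, the arrays of 2 times only, and leaving arrays out. An exact permutation test of 3 against 3 arrays cannot go below 0.1 and was not used.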

Additional observations from a re-analysis of the deposited data

How the results depend on the processing

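The 27 genes higher at 25 h than at 1 h numbered 20 (without the arrays numbered 1) to 31 (replicate block) over the alternatives tried, 19 of them were called in every setting that tested them, and 0 reversed. The settings with fewer arrays have less information; the cause of other changes was not tested. Without all arrays numbered 1, the count for 15 h against 1 h was 6 in place of 18, for 15 h against 5 h 0 in place of 13, and over the 4 times 16 in place of 27. With the block on those same arrays, a setting chosen after seeing the data, these counts were 17, 15 and 26. The replicate block, which pairs arrays by number, gave 21 genes for 15 h against 5 h, 2 for 25 h against 15 h and 2 for 5 h against 1 h. The count for 5 h against 1 h, 0 as reported, was 1 with quantile normalization, with the mean of probe sets, with no trend, and without the arrays numbered 1 together with the block. Leaving out 1 array at a time gave 13 to 20 genes for 15 h against 1 h, 23 to 27 for 25 h against 1 h, 3 to 14 for 15 h against 5 h, 0 to 1 for 5 h against 1 h, 0 for 25 h against 15 h, and 19 to 27 over the 4 times. The median log2 change of the lysosomal genes was 0.59 at 15 h with median centring or quantile normalization, 0.97 at 25 h after adding 44.9 to every signal, and 0.32 between 15 and 25 h without 25 h array 3. Among genes with no call at 25 h, the change of M6pr ran from -0.20 without 1 h array 2 to 0.024 without 1 h array 3, and that of Ids from -0.40 without 25 h array 2 to 0.40 without 25 h array 3; that of the marker Laptm5 ran from -0.85 without 1 h array 3 to 0.16 without 25 h array 3. The median of all tested genes at 25 h was 0.13 as reported, 0.06 with median centring, 0.08 with quantile normalization and 0.21 with no filter. Signals near the filter, as for Gla, Sgsh and Mitf at 1 h, lie close to background, so their folds are less certain than those of bright genes.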

Other observations

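Among the neighbouring lists, the cathepsin Ctsf had the largest fitted change at 25 h. It was picked out after its values were seen. Only on 15 h array 3 and 25 h arrays 2 and 3 did Ctsf reach the signal used as the filter. Its mean was 19.2 ± 3.65 at 1 h, under the 25th percentile of all signals (44.9), and 354 ± 326 at 25 h (SD, n = 3; limma adjusted p = 0.00381), so the size of the change depends on signals near background. Naaa, a lysosomal amidase of fatty acid ethanolamides, rose 2.09-fold (limma adjusted p = 0.000164). Nbr1, a cargo receptor of autophagy, rose 2.34-fold (limma adjusted p = 0.000169). In the nutrient sensing list, Lamtor2, a subunit of the Ragulator scaffold, rose 1.94-fold (limma adjusted p = 0.00179) and Ppp3ca, a catalytic subunit of calcineurin, 2.18-fold (limma adjusted p = 0.0064, and 0.0746 without the arrays numbered 1), while Flcn, which acts on the Rag GTPases, had a log2 change of 0.26 (limma adjusted p = 0.455).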
